A study of Mus musculus with 36 samples.

Results

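The cathepsin genes Ctsa, Ctsb, Ctsc, Ctsd, Ctsf, Ctsh, Ctsl, Ctss and Ctsz were followed in the progeny of 2 hair follicle stem cell populations of mouse tail skin, before and after 2 consecutive injuries. Of the 9 genes listed, 8 had a row of counts in the tables of both populations and were analysed, out of 20181 genes in the Lrig1 table and 22587 in the Lgr5 table; Ctss was not analysed here. The genes were selected on the presence of a row of counts in both tables, in a set named for Ctsc and chosen with earlier results of these data known, so the levels and changes of Ctsc against 0w below describe where it stood among all genes tested and are not independent evidence that it changed. All 8 genes analysed passed the filter on low counts in both populations.

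Lrig1-EGFP-ires-CreERT2 or Lgr5-EGFP-ires-CreERT2 mice carrying Rosa26-fl/STOP/fl-tdTomato were 6 to 8 weeks old when labelled by a single topical dose of 4-hydroxytamoxifen, a drug that switches on CreERT2, so that cells then using the Lrig1 or the Lgr5 promoter, and all their descendants, carried tdTomato. These genetically labelled descendants are called Lrig1 GL and Lgr5 GL cells, after the upper follicle (Lrig1) and the bulge (Lgr5) in which the promoters are used. Tail skin was wounded at full thickness 1 week after labelling. Cells were sorted before injury (0w), after the first wound at 1 week (1w pw1), 2 weeks (2w pw1), 4 weeks (4w pw1) and 8 weeks (8w pw1), and 1 week after a second wound (1w pw2). After wounding, the sorted zone took in the wound bed together with hair follicles farther away, and at 0w there was no wound bed. The second wound overlapped the first, which by the paper removed epidermal stem cells that had come from hair follicles. A library was made from 150 cells, and each of the 12 groups held 3 libraries. Every group, 0w included, had received the labelling drug, both sexes were used, and after wounding, sorted cells from wound bed and follicles cannot be told apart within a library. No later unwounded group of matching age was among these samples. Changes against 0w therefore cannot be told apart from those of age or of time since labelling. In such bulk samples fewer expressing cells and less RNA per cell cannot be told apart either.

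Library totals were between 765252 and 3365666 counts for the Lrig1 lineage and between 1297798 and 6960537 for the Lgr5 lineage, so that 3 counts corresponded to at most 3.39 CPM (counts scaled to the size of the library, per 1e6 counts) in any library. The most abundant gene of a library took 12.04% to 52.07% of counts in Lgr5 GL and 1.693% to 5.122% in Lrig1 GL libraries. The larger Lgr5 GL totals were thus partly counts of a single gene. Totals were scaled by TMM factors of 0.6682 to 1.234 in Lgr5 GL and 0.8215 to 1.164 in Lrig1 GL libraries. The lowest factor was that of Lgr5 GL 1w pw1 replicate 1, where that gene took 49.66%. The keratinocyte genes Krt5 and Krt14 were abundant in all 36 libraries, with Krt5 between 1951 and 5841 CPM. Lgr5 itself had a median of 298 CPM in Lgr5 GL and 51.5 CPM in Lrig1 GL cells, and Krt79, a gene of the upper follicle, medians of 386 and 2043 CPM, but the ranges of the populations overlapped for both genes. Of 18 markers of macrophages, dendritic and Langerhans cells, 6 were analysed in Lrig1 and 7 in Lgr5 GL libraries, where they summed to at most 53.0 and 76.7 CPM; Cd74 did not exceed 14.3 CPM in any library and was at 0 in the median library of both populations.

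Cathepsins are proteases that work mostly in lysosomes, the acidic compartments in which cells digest proteins. Most are made as inactive precursors, are carried to the lysosome by mannose 6-phosphate receptors or sortilin, and are held in check outside it by cystatins and stefins. Ctsb, Ctsc, Ctsf, Ctsh, Ctsl, Ctss and Ctsz encode cysteine proteases, Ctsd an aspartic protease and Ctsa a serine carboxypeptidase that also protects other lysosomal enzymes. Ctsc encodes dipeptidyl peptidase I, which trims dipeptides from protein ends and is best known for activating the serine proteases of neutrophils, mast cells and cytotoxic T cells; loss of human CTSC causes Papillon-Lefèvre syndrome, with thickened skin of palms and soles. In epidermis, cathepsins L and D are known for roles in hair follicle cycling and cornification.

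In GRCm38, Ctsc lies at chr7:88278085-88310888 on the plus strand, Ctsd on the same chromosome at chr7:142375911-142388038, Ctsa at chr2:164832873-164841032, Ctsz at chr2:174427493-174439039, Ctsl at chr13:64359337-64370890, Ctsb at chr14:63122462-63145923, Ctsf at chr19:4855130-4860918 and Ctsh at chr9:90054152-90076089. All are protein-coding genes. The libraries kept no strand, and exons of other genes covered 34.4% of the exonic bases of Ctsd, 26.8% of those of Ctsl, 17.4% of Ctsa, 12.8% of Ctsb and 0.694% of Ctsz, so reads there could not be assigned by strand. The exons of Ctsc, Ctsf and Ctsh were free of such overlap.

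The sequences below show how the start of Ctsc compares with those of its relatives. RefSeq windows on GRCm38.p6, from 250 bases before to 50 bases after a transcription start, were matched to 6 of the 8 genes (7 windows, Ctsa having 2). They were searched on both strands for CACGTG, the E-box core bound by TFEB and related factors that act on lysosomal genes, and for TGANTCA, the core bound by AP-1. Both strings read the same on either strand, and they do not overlap each other. CACGTG was found in windows of 4 genes, Ctsa, Ctsd, Ctsf and Ctsl, against 7.15% of all 32851 windows, and it was not found in the window of Ctsc or of Ctsz. TGANTCA was found in none of the 7 windows, against 7.81% of all windows. These matches describe letters only. The 250 bases before the start of Ctsc (chr7:88277835-88278084, plus strand) are shown in lower case, since neither string was in them, followed by pieces around CACGTG, in capitals, from the other genes:
Ctsc: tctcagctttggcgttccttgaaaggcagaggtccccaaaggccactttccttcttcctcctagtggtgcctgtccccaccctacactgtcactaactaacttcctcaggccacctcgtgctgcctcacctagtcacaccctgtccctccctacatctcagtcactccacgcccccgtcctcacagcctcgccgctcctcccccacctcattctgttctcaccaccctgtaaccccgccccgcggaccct
Ctsd (chr7:142387908-142387937, minus strand): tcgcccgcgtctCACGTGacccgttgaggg
Ctsf (chr19:4855074-4855103, plus strand): caccccgtggtcCACGTGcctcgcgtaaat
Ctsl (chr13:64370739-64370768, minus strand): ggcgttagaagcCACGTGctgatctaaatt
Ctsa (chr2:164833749-164833778, plus strand): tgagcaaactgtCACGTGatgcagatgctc

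Ctsc had the largest called changes of the cathepsins. Its level in Lrig1 GL cells was 47.7, 34.9 and 85.2 CPM in the 3 libraries at 0w and 241, 602 and 469 CPM at 1w pw1. It was 238, 423 and 289.9 CPM at 2w pw1 and 154.5, 29.9 and 159.8 CPM at 4w pw1. At 8w pw1 the libraries gave 68.8, 141 and 156 CPM, and at 1w pw2 they gave 391, 498 and 477 CPM. Every library at 1w pw1, 2w pw1 and 1w pw2 thus lay above the 3 libraries at 0w, while those at 4w pw1 and 8w pw1 overlapped them.

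In edgeR's quasi-likelihood test across 14306 genes, Ctsc was 7.84-fold higher at 1w pw1 than at 0w (log2 fold change 2.97, SE 0.55, adjusted p = 0.0291, n = 3 each). At 1w pw2 it was 8.16-fold higher than at 0w (log2 fold change 3.03, SE 0.55, adjusted p = 0.0191). At each of these times it was the 1 cathepsin of 8 called, that is with an adjusted p below 0.05 and a log2 fold change over 1 in size; 0.217% of all genes were called at 1w pw1 and 1.23% at 1w pw2. The second and first responses differed little, by a log2 fold change of 0.06 with an SE of 0.51 (adjusted p = 0.984), an error that leaves room for differences of either sign. The higher level at 2w pw1 (log2 fold change 2.51, SE 0.54, adjusted p = 0.106) did not pass, nor did that at 8w pw1 (1.13, SE 0.52, adjusted p = 0.208), which was 0.04 (adjusted p = 0.986) once each library's trend with GC content was removed. Over the whole time course, Ctsc passed with an adjusted p of 0.0241, as did 1.63% of genes; without 8w pw1 replicate b, or 1w pw2 replicate 2 or 3, the adjusted p was 0.055, 0.056 and 0.0568. From 8w pw1 to 1w pw2 it was 3.74-fold higher with no overlap (log2 fold change 1.90, SE 0.53, adjusted p = 0.615), in a comparison that 0.00699% of genes passed.

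These calls stood close to the threshold. The log2 fold change at 1w pw1 stayed between 2.67 and 3.40 when any 1 library was left out but lost its call without 0w replicate 1 (adjusted p = 0.137), 0w replicate 2 (0.0887), 1w pw1 replicate 2 (0.0896) or 1w pw1 replicate 3 (0.0816). The 1w pw2 change stayed between 2.77 and 3.47 but lost its call without 0w replicate 1 (adjusted p = 0.0661), 0w replicate 2 (0.052), 1w pw2 replicate 2 (0.0827) or 1w pw2 replicate 3 (0.0576). Ctsc transcripts are comparatively poor in G and C (41.1%), and when each library's trend with GC content was removed the change at 1w pw2 was 2.08 (adjusted p = 0.105) and that at 1w pw1 2.69 (adjusted p = 0.0436). By limma-voom and with surrogate variables in the model, the 1w pw1 change had an adjusted p of 0.263 and 0.0694.

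**Figure D1:**
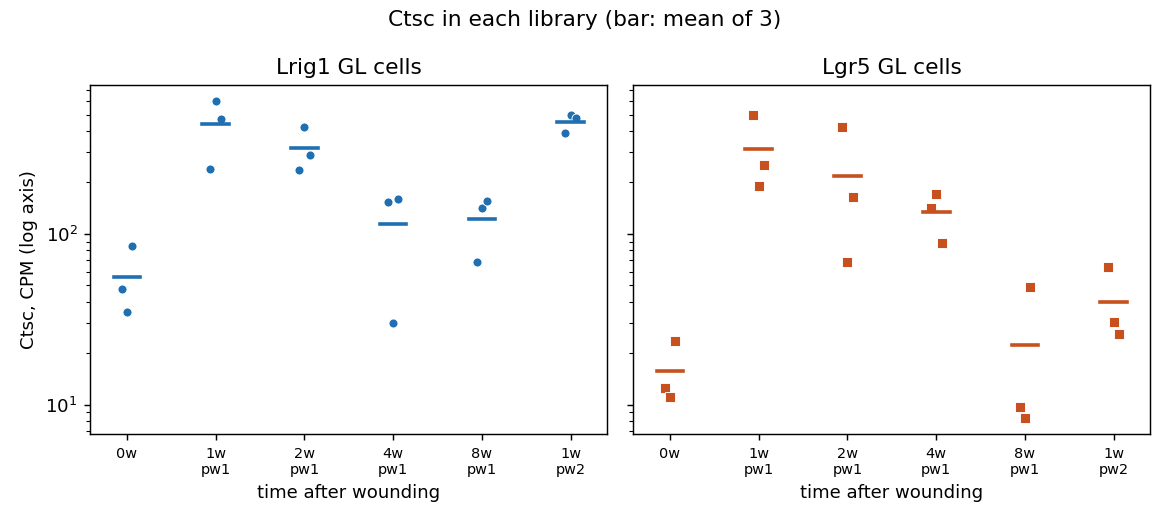
Ctsc in CPM (log axis) at each time point in Lrig1 GL cells (left, blue circles) and Lgr5 GL cells (right, orange squares); each point is 1 library and each bar the mean of 3. After the second wound the Lrig1 GL libraries returned to between 391 and 498 CPM, while the Lgr5 GL libraries lay between 26.0 and 63.7 CPM.

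In Lgr5 GL cells Ctsc began lower and reached similar heights after the first wound. Its level was 12.5, 11 and 23.4 CPM at 0w and 494, 191 and 255 CPM at 1w pw1. It was 422, 68.3 and 164 CPM at 2w pw1 and 142, 171 and 88.8 CPM at 4w pw1. At 8w pw1 it was 9.72, 8.29 and 48.9 CPM, and at 1w pw2 it was 63.7, 30.3 and 26.0 CPM. All libraries at 1w, 2w and 4w pw1 and at 1w pw2 lay above those at 0w, and the groups at 8w pw1 and 0w overlapped.

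Across 18025 genes Ctsc was 20.2-fold higher at 1w pw1 than at 0w (log2 fold change 4.34, SE 0.75, adjusted p = 0.0154 by edgeR's quasi-likelihood test, n = 3 each), and it was again the 1 cathepsin of 8 called, where 1.29% of genes were. The call was lost without 0w replicate a (adjusted p = 0.0592), 0w replicate b (0.0724) or 1w pw1 replicate 1 (0.0531), with log2 fold changes of 4.19, 4.13 and 3.85. The time course call (adjusted p = 0.00954, background 1.13%) held without any 1 of the 18 libraries. With surrogate variables in the model the adjusted p was 0.0871 at 1w pw1 and 0.0609 over the time course. At 2w pw1 and 4w pw1 the log2 fold changes of 3.81 (SE 0.74, adjusted p = 0.151) and 3.11 (SE 0.72, adjusted p = 0.11) did not pass, although in both cases the groups did not overlap. At 1w pw2 Ctsc was 2.59-fold above 0w (log2 fold change 1.38, SE 0.68, adjusted p = 0.804).

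Summed markers of cell types also differed between 0w and 1w pw1. The 7 markers of the lower follicle, all analysed, summed to 1814 to 3095 CPM at 0w and 604.5 to 1183 CPM at 1w pw1 in Lrig1 GL cells, and to 1965 to 3868 and 606 to 1597 CPM in Lgr5 GL cells. The lower ranges did not overlap those at 0w. Krt15, a keratin of the bulge, fell by 3.28 on the log2 scale at 1w pw1 (SE 0.62, adjusted p = 0.0316) in Lrig1 and by 1.16 (SE 0.28, adjusted p = 0.0498) in Lgr5 GL cells. Sox9, a transcription factor of follicle stem cells, fell by 1.33 in Lgr5 GL cells (SE 0.30, adjusted p = 0.038). The 5 upper follicle markers summed to 4990 to 6671 CPM at 0w and 2175 to 3177 CPM at 1w pw1 in Lrig1 GL cells, and overlapped in Lgr5 GL cells. Of 9 fibroblast markers, 7 were analysed in Lrig1 and 9 in Lgr5 GL cells, and they went from 328 to 488 down to 137 to 242 CPM and from 806.5 to 1152 down to 353 to 640 CPM. Of 9 T cell markers only Trbc2, a T cell receptor constant segment, was analysed in Lgr5 GL cells, with 12.5 to 22.4 CPM at 0w and 43.0 to 55.5 CPM at 1w pw1. The 3 analysed in Lrig1 GL cells overlapped, at 15.9 to 41.8 and 36.2 to 108.5 CPM.

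At 1w pw2 in Lrig1 GL cells, where Ctsc was high again, the lower follicle markers summed to 397 to 856 CPM, the upper follicle markers to 3240 to 3731 CPM and the fibroblast markers to 147 to 241 CPM, each below 0w, and the T cell markers overlapped 0w at 25.5 to 53.1 CPM. Krt15 (log2 fold change -2.76, SE 0.61, adjusted p = 0.036) and Sox9 (-1.90, SE 0.42, adjusted p = 0.0362) were called lower there. At the times between, Ctsc of Lrig1 GL cells lay above 0w at 2w pw1 and overlapped it at 4w and 8w pw1. The lower follicle sums of these cells stayed below 0w at 2w (940 to 1340 CPM), 4w (825 to 1468 CPM) and 8w pw1 (769 to 1145 CPM). The upper follicle sums were below 0w at 2w pw1 (3261 to 4162 CPM). They overlapped it at 4w and 8w pw1 (1685 to 5701 and 4285 to 5903 CPM). The fibroblast sums overlapped 0w at 2w, 4w and 8w pw1 (208.5 to 457, 292 to 450 and 262 to 344 CPM). In Lgr5 GL cells Ctsc lay above 0w at 2w and 4w pw1. Their lower follicle sums were below 0w at 2w pw1 (1415 to 1803 CPM) and overlapped it at 4w pw1 (1305 to 2360 CPM). In Lgr5 GL cells at 1w pw2, where Ctsc was low, the lower follicle markers summed to 2339 to 2637 CPM and overlapped 0w, and Trbc2 was at 14.3 to 25.0 CPM. The upper follicle markers overlapped 0w there too, at 1201 to 2651 CPM. The fibroblast markers of Lgr5 GL cells stayed below 0w at 8w pw1 (281 to 620 CPM) and at 1w pw2 (381 to 534 CPM). Other called markers in Lgr5 GL cells were Krt14, a basal keratin (1.53 at 1w pw1, SE 0.29, adjusted p = 0.0197; -1.85 from the first to the second response, SE 0.29, adjusted p = 0.0111), and, at 4w pw1, Krt15 (-2.27, SE 0.29, adjusted p = 0.0034) and Sparc, a matrix protein gene (-2.35, SE 0.41, adjusted p = 0.0282). The part of these genes in the level of Ctsc was not tested.

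The response to the second wound was also compared with that to the first. After the second wound Ctsc in Lgr5 GL cells was 7.79-fold below its level 1 week after the first (log2 fold change -2.96, SE 0.70, adjusted p = 0.069), with groups that did not overlap. This missed the threshold, which 0.266% of genes passed. Without 8w pw1 replicate c the adjusted p was 0.0491, the 1 call in 18 fits without 1 library, and it reached 0.253 in the others. DESeq2 gave 0.000728. Across 12 alternative fits, DESeq2 among them, the log2 fold change ran from -3.33 to -1.795, with an adjusted p of up to 0.438. Between populations, this fold of the second over the first response differed by 3.09 on the log2 scale (SE 0.90), which over the 16153 genes tested in both populations gave an adjusted p of 0.138 by edgeR, where 0.0557% of genes passed.

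Levels of Ctsc were also compared directly between populations, in comparisons that, apart from 0w, were added after the data had been seen. At 1w pw2 Ctsc was 9.16-fold higher in Lrig1 than in Lgr5 GL cells (log2 difference 3.20, SE 0.67, adjusted p = 0.00423, n = 3 each). In the same test 6.83% of genes passed. The call held without any 1 of the 36 libraries, with the likelihood ratio test, DESeq2 size factors or no filter and without mitochondrial genes, and it just missed the threshold with the GC trend removed (log2 difference 2.35, adjusted p = 0.0518). At 8w pw1 it was 4.43-fold higher (log2 difference 2.15, SE 0.65, adjusted p = 0.0292), against a background of 12.5% of genes. That call was lost without any 1 of 8w pw1 replicates b or c of Lrig1 (adjusted p = 0.0761 and 0.0915) or a or b of Lgr5 GL cells (0.144 and 0.149), and with the GC trend removed (log2 difference 1.15, adjusted p = 0.375). Without replicate c of Lgr5 GL cells, which had the 48.9 CPM, the log2 difference was 3.48 (adjusted p = 0.00469). At 0w the difference of 1.499 (SE 0.66, adjusted p = 0.224) did not pass, and at 1w pw1 it was 0.11 (SE 0.62, adjusted p = 0.948). The difference between populations in the change of Ctsc against 0w, which had been planned, did not pass by edgeR's quasi-likelihood test. It was 1.70 (SE 0.90, adjusted p = 0.433) at 1w pw2 and 0.65 (SE 0.90, adjusted p = 0.758) at 8w pw1. At 1w pw1 it was -1.39 (SE 0.90, adjusted p = 0.475). The level differences therefore do not show that the response to the second wound differed. The tables of the populations were counted separately, so population and table cannot be told apart.

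Ordered by mean level, Ctsc ran from 455 ± 56.4 CPM (SD, n = 3) in Lrig1 GL cells at 1w pw2 and 437 ± 182 at 1w pw1, through 317 ± 95.6 in Lrig1 GL cells at 2w pw1, 313 ± 159.7 in Lgr5 GL cells at 1w pw1 and 218 ± 183 in Lgr5 GL cells at 2w pw1. Below these stood 134 ± 41.9 CPM (Lgr5 GL, 4w pw1), 122 ± 46.6 (Lrig1 GL, 8w pw1) and 115 ± 73.5 (Lrig1 GL, 4w pw1). The lowest means were 56.0 ± 26.1 CPM (Lrig1 GL, 0w), 39.99 ± 20.6 (Lgr5 GL, 1w pw2), 22.3 ± 23.0 (Lgr5 GL, 8w pw1) and 15.6 ± 6.79 (Lgr5 GL, 0w). Neighbouring groups overlapped at each step of this order.

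Per length, Ctsc went from the bottom of the family towards its top in Lrig1 GL cells after the second wound, while in Lgr5 GL cells it was at the bottom both at 0w and then. In Lrig1 GL cells at 0w it had 9.63 ± 4.497 CPM per kilobase of exon (SD, n = 3), the lowest of the 8 genes, where Ctsd had 172 ± 32.9 and Ctsb 105 ± 14.9. At 1w pw2 it had 78.4 ± 9.71, behind Ctsd at 104 ± 8.13 and Ctsb at 100.2 ± 11.01. Taken over the longest transcript instead of all exons, Ctsc stood at 17.4 at 0w, above Ctsz at 15.4, and at 141 at 1w pw2, above Ctsb at 128 and Ctsd at 115, so its place in the order depended on the length used. At 0w in Lgr5 GL cells it had 2.69 ± 1.17 per kilobase of exon and was the lowest by either length. At 1w pw2 there it had 6.89 ± 3.55 per kilobase of exon, below Ctsf at 11.3 ± 1.07, and 12.4 over the longest transcript, below Ctsh at 22.6, so it was again the lowest by either length.

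The same shift appeared as a share of all counts of the 8 genes, which does not depend on the scaling of the rest of the library. Ctsc in Lrig1 GL cells took 1.89% to 5.31% of cathepsin counts at 0w, 11.5% to 28.0% at 1w pw1 and 23.7% to 26.7% at 1w pw2. The corresponding shares in Lgr5 GL cells were 0.570% to 1.40% at 0w, 9.60% to 22.8% at 1w pw1 and 2.23% to 4.40% at 1w pw2. The share does depend on the other cathepsins, several of which were low in Lrig1 GL cells at 8w pw1. There it was 6.51% to 15.2%, above 0w, although the CPM of Ctsc overlapped 0w. The exact 95% binomial interval of a single library's share, which covers counting error only, was at most 4.08 percentage points wide across these groups. Ctsb held the largest part at 1w pw2 in both populations, with 33.0% ± 1.53 (SD, n = 3) and 34.9% ± 1.94.

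**Figure D2:**
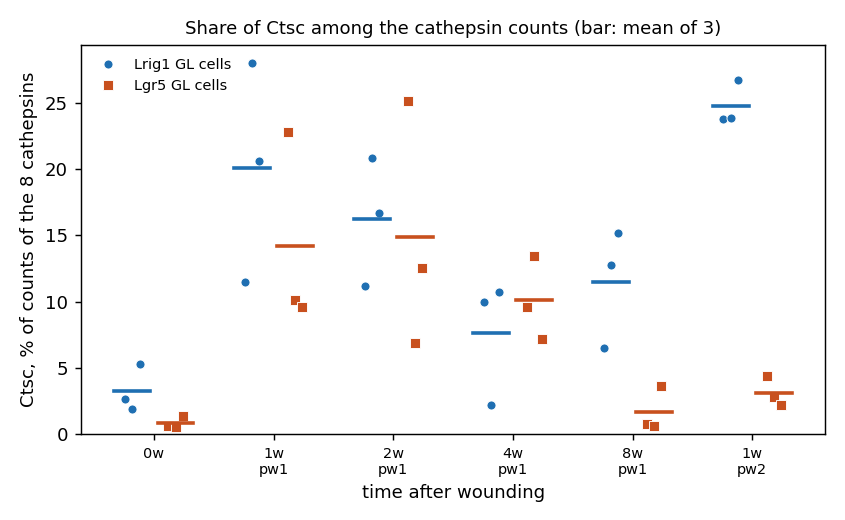
Ctsc counts as a percentage of the counts of the 8 cathepsins at each time point, in Lrig1 GL (blue circles) and Lgr5 GL cells (orange squares); each point is 1 library and each bar the mean of 3. The shares at 1w pw2 were 23.7% to 26.7% in Lrig1 GL and 2.23% to 4.40% in Lgr5 GL cells.

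None of the other 7 cathepsins was called in a comparison against 0w, or over a time course, in which Ctsc was. Across 18 libraries of each population, the genes whose log level was most like that of Ctsc, by the mean of the Pearson correlations in the 2 populations, were Tubb6 (mean r 0.80), Fabp5 (0.79), Igsf3 (0.76), Tes (0.76) and Gja1 (0.75), out of 11520 genes. Among cathepsins the closest was Ctsb (r 0.31 in Lrig1 and 0.39 in Lgr5 GL cells, mean 0.35, rank 747) and the farthest Ctsf (-0.52, rank 11336). These are descriptions over libraries that share groups and scaling.

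Ctsb, an abundant cysteine protease with endo- and exopeptidase activity, had log2 fold changes of the same sign as Ctsc in several comparisons without being called in them. Its level in Lgr5 GL cells was 602, 631 and 495 CPM at 0w, 862, 769 and 978 CPM at 1w pw1 and 523, 353 and 417.5 CPM at 1w pw2. The 1w pw1 libraries lay above all those at 0w (log2 fold change 0.60, SE 0.21, adjusted p = 0.152) and at 1w pw2. From the first to the second response its log2 fold change was -1.01 (SE 0.22, adjusted p = 0.0537), which just missed the threshold. The adjusted p was 0.0441 and 0.0488 without 0w replicate c or 4w pw1 replicate a, the 2 calls in 18 fits without 1 library. In the others it reached 0.241. Of 12 alternative fits 7 called it, with an adjusted p from 7.35e-05 to 0.255 over the 12. Ctsb passed the time course test in adjusted p (0.0255), but no single change exceeded the fold limit.

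Ctsb in Lrig1 GL cells was 728, 621 and 549 CPM at 0w, 317, 330.4 and 321 CPM at 8w pw1 and 534, 665 and 619.5 CPM at 1w pw2. The libraries at 8w pw1 were the lowest, below all at 0w and all at 1w pw2. Its log2 fold change at 8w pw1 was -0.97 (SE 0.24, adjusted p = 0.0405), inside the limit of 1. From 8w pw1 to 1w pw2 it was 0.91 (SE 0.24, adjusted p = 0.532). The change against 0w did not pass a difference between populations at 1w pw1 (-0.50, SE 0.29, adjusted p = 0.418), 8w pw1 (-0.32, SE 0.29, adjusted p = 0.601) or 1w pw2 (0.40, SE 0.29, adjusted p = 0.597), nor did that of the second over the first response (0.90, SE 0.29, adjusted p = 0.186). In level, Ctsb was lower in Lrig1 than in Lgr5 GL cells at 1w pw1 by 0.72 on the log2 scale (SE 0.21, adjusted p = 0.047), the 1 cathepsin to pass there, where 3.88% of genes did. That call was kept in 1 of 36 fits without 1 library, with an adjusted p of up to 0.203 (without Lrig1 1w pw1 replicate 2), and was lost with the GC trend removed (0.0666).

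Ctsd, the aspartic protease, was the other gene called against 0w. Its level in Lrig1 GL cells was 324, 407 and 479 CPM at 0w and 128, 189 and 181 CPM at 8w pw1, and it was 2.43-fold lower (log2 fold change -1.28, SE 0.30, adjusted p = 0.0356 by edgeR's quasi-likelihood test, n = 3 each). It was 1 of 8 cathepsins called, where 2.82% of all genes were. The call was kept in 11 of the 18 fits without 1 library and lost without 0w replicate 1 (adjusted p = 0.0631) or 3 (0.0819), 8w pw1 replicate a (0.136), b (0.083) or c (0.0919), or 1w pw2 replicate 2 (0.0519) or 3 (0.0531). With the GC trend removed the change was -0.78 (adjusted p = 0.158), and Ctsd transcripts hold 55.9% G and C. The change of Ctsd at 8w pw1 in Lgr5 GL cells was -0.21 (SE 0.30), and the difference between populations (-1.01, SE 0.41, adjusted p = 0.198) did not pass, where 1.11% of genes did.

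Several cathepsins lay low together in Lrig1 GL cells at 8w pw1. For 5 of the 8 genes (Ctsa, Ctsb, Ctsd, Ctsf and Ctsh) all 3 libraries at 8w pw1 were below all 3 at 0w, as was so for 12.8% of all genes. The median log2 fold change of the 8 was -1.19, against -0.01 for all genes tested. Beside Ctsd, the log2 fold changes were -1.31 for Ctsa (SE 0.36, adjusted p = 0.0558), -1.10 for Ctsh (SE 0.33, adjusted p = 0.0671) and -1.62 for Ctsf (SE 0.60, adjusted p = 0.122). With the GC trend removed the changes at 8w pw1 were -0.88 for Ctsa, -1.02 for Ctsb, -0.78 for Ctsd, -1.07 for Ctsf and -1.06 for Ctsh. The adjusted p was then 0.0656 to 0.38 and 0 cathepsins were called, with 70 genes called in all against 404 in the reported fit. Mitochondrially encoded genes took 12.8% ± 1.77 (SD, n = 3) of counts in these libraries and 4.59% ± 1.24 at 0w. With those genes left out before scaling, 2 cathepsins were called at 8w pw1, with 425 genes called in all. The added call was that of Ctsb, whose log2 fold change went from -0.97 to -1.005 (adjusted p = 0.0357), past the limit of 1. The part of mitochondrially encoded genes in the low levels was not tested.

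**Figure D3:**
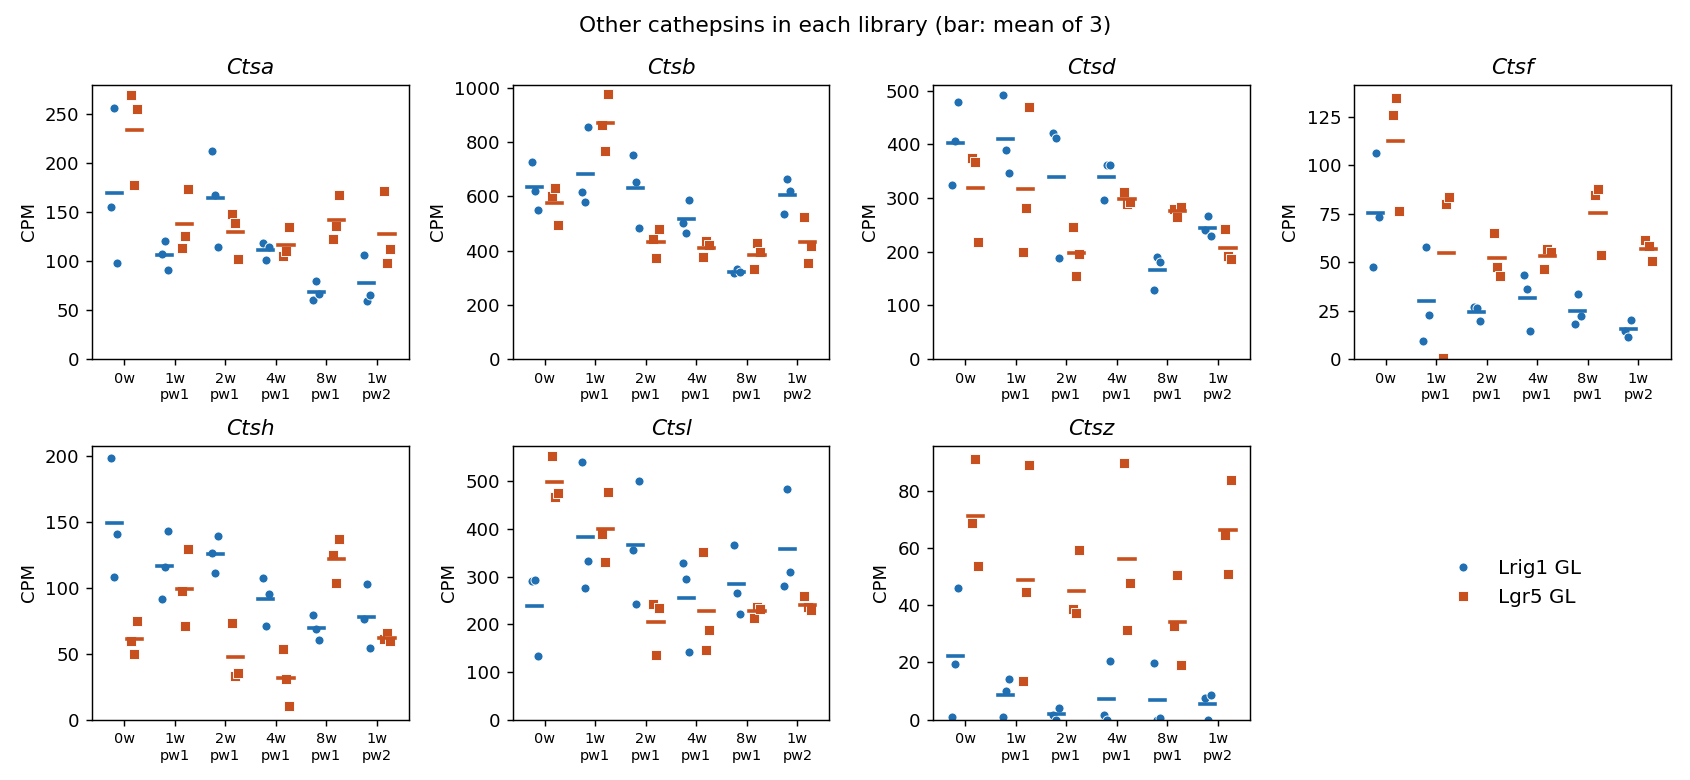
Ctsa, Ctsb, Ctsd, Ctsf, Ctsh, Ctsl and Ctsz in CPM (linear axes from 0, each with its own scale) at each time point in Lrig1 GL (blue circles) and Lgr5 GL cells (orange squares); each point is 1 library and each bar the mean of 3. At 8w pw1 the Ctsd libraries of Lrig1 GL cells lie between 128 and 189 CPM, below the 324 to 479 CPM at 0w.

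Ctsl, a cysteine protease with strong endopeptidase activity, differed between the populations before injury. Its level at 0w was 290.5, 293.6 and 133 CPM in Lrig1 GL and 553, 467 and 475 CPM in the Lgr5 progeny, with no overlap. The log2 difference was -1.41 (SE 0.36, adjusted p = 0.0288), where 2.90% of genes passed. The call was lost without 1 of several 0w libraries, namely Lrig1 replicate 1 (adjusted p = 0.0586) or 3 (0.14), or Lgr5 replicate a (0.0979), b (0.0738) or c (0.0688). Within Lgr5 GL cells all libraries at 2w, 4w and 8w pw1 and at 1w pw2 (136 to 351 CPM) lay below those at 0w. The log2 fold changes there were -1.28, -1.13, -1.14 and -1.05, with adjusted p of 0.216, 0.167, 0.536 and 0.601. Within Lrig1 GL cells the changes against 0w were between 0.10 and 0.68, and none passed.

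Ctsh, an aminopeptidase, had opposite directions in the populations at 8w pw1. Its level in Lrig1 GL cells was 198, 108 and 140.3 CPM at 0w and 79.4, 68.4 and 60.0 CPM at 8w pw1. Lgr5 GL cells had 59.7, 49.6 and 74.8 CPM at 0w and 125, 104 and 137 CPM at 8w pw1. Each pair of groups was free of overlap. The change was -1.10 in one and 0.99 in the other (adjusted p = 0.782), and the difference between them was -2.02 (SE 0.54, adjusted p = 0.0579), which missed the threshold. It passed without Lrig1 0w replicate 2 (0.0388) and without Lgr5 4w pw1 replicate a (0.04) or c (0.0321). These were 3 of 36 fits without 1 library, and in the others the adjusted p reached 0.126. Across 5 alternative fits it ran from 0.014 to 0.138.

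Ctsa, the carboxypeptidase, was highest before injury in Lgr5 GL cells. There it was 269, 178 and 255 CPM at 0w, and all 15 later libraries lay below these, between 98.0 and 173.5 CPM. None of its 5 log2 fold changes there, from -1.001 to -0.72, passed (lowest adjusted p = 0.162). Between populations it was lower in Lrig1 GL cells by 1.33 on the log2 scale at 8w pw1 (SE 0.31, adjusted p = 0.00612) and by 1.04 at 1w pw2 (SE 0.31, adjusted p = 0.039). In all, 3 of the 8 cathepsins differed in level at 8w pw1, against 12.5% of all genes, Ctsa and Ctsd (log2 difference -1.02, SE 0.30, adjusted p = 0.0229) being lower and Ctsc higher in Lrig1 GL cells. At 1w pw2, Ctsa and Ctsc did, against 6.83% of all genes. With the GC trend removed none of these was called, and the differences of Ctsa were -0.56 at 8w pw1 (adjusted p = 0.323) and -0.38 at 1w pw2 (0.593) and that of Ctsd -0.15 (0.832). The Ctsa difference at 1w pw2 kept its call in 21 of 36 fits without 1 library, with an adjusted p of up to 0.247 (without Lgr5 1w pw2 replicate 1). The Ctsd difference at 8w pw1 lost its call without 8w pw1 replicates a or c of Lrig1 GL (adjusted p = 0.112 and 0.054) and replicates a, b or c of Lgr5 GL cells (0.0644, 0.054 and 0.0566).

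Ctsf, a cysteine protease with a cystatin-like region in its precursor, was at 47.2, 106 and 73.0 CPM in Lrig1 GL cells at 0w and at 14.6, 11.2 and 20.4 CPM at 1w pw2. Its groups did not overlap, and the log2 fold change was -2.30 (SE 0.62, adjusted p = 0.0738). Of the Lgr5 GL libraries 1 stood apart, 1w pw1 replicate 1, which had 2 counts of Ctsf (0.652 CPM) where the other 2 of its group had 79.8 and 83.7 CPM. The same library had the highest Ctsc of its group, 494 CPM.

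Ctsz, a carboxypeptidase, was sparse in Lrig1 GL cells, with 0 counts in 4 of 18 libraries and a median of 6.5 counts. Its 18 libraries there ran up to 46.1 CPM, while all 18 Lgr5 GL libraries held Ctsz, between 13.4 and 91.1 CPM. By edgeR's quasi-likelihood test the log2 difference between populations did not pass at any time point; at 2w pw1 it was -4.72 (SE 1.39, adjusted p = 0.0692) and at 1w pw2 -3.98 (adjusted p = 0.0637). The likelihood ratio test passed both (adjusted p = 0.0202 and 0.0348). Leaving out 1 library moved these values: without Lrig1 8w pw1 replicate a the difference at 8w pw1 went from -2.54 to -6.98 (adjusted p = 0.0259), and without Lrig1 4w pw1 replicate c that at 4w pw1 went from -3.40 to -6.45 (adjusted p = 0.0476). Without other single libraries the adjusted p reached 0.36 at 8w pw1 and 0.325 at 4w pw1. No cathepsin passed between populations at 2w pw1 or 4w pw1 by edgeR, where 1.90% and 3.64% of genes did. At an unadjusted p under 0.05 there were 2 and 2, against 17.2% and 19.5% of all genes. By the likelihood ratio test 1 passed at 2w pw1, where 868 of all genes did, and 0 at 4w pw1. With so few counts, smaller changes of Ctsz in Lrig1 GL cells could not be seen at this depth.

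Counted over all comparisons against 0w, edgeR's quasi-likelihood test called none of the 8 cathepsins at 2w pw1 or 4w pw1 in either population, nor at 8w pw1 and 1w pw2 in Lgr5 GL cells. At an unadjusted p under 0.05 these comparisons held 2 genes at 2w and 2 at 4w pw1 in Lrig1 GL cells, and 4, 5, 4 and 3 genes at 2w, 4w and 8w pw1 and 1w pw2 in Lgr5 GL cells. At that threshold stood 10.5% and 8.37% of all genes in the Lrig1 GL comparisons and 8.79%, 10.7%, 5.94% and 6.42% in those of Lgr5 GL cells. DESeq2 called 1 and 0 in Lrig1 GL cells, and 2, 2, 1 and 0 in Lgr5 GL cells. Where it called a cathepsin, it called 249 of all genes at 2w pw1 in Lrig1 GL cells. In Lgr5 GL cells it called 177, 279 and 66 of all genes at 2w, 4w and 8w pw1. By edgeR's quasi-likelihood test none of the 8 passed a difference between populations in the change against 0w, where 0.0495%, 0%, 0.0929%, 1.11% and 0.155% of all genes passed at 1w, 2w, 4w and 8w pw1 and 1w pw2. At an unadjusted p under 0.05 there were 0, 1, 2, 3 and 1 of the 8, against 15%, 9.34%, 10.5%, 17.6% and 13% of all genes. The likelihood ratio test passed Ctsl at 2w pw1 (1.91, adjusted p = 0.0442) and Ctsh at 8w pw1 (-2.02, adjusted p = 0.014), where 109 and 693 of all genes passed. The share of all genes passing in the comparisons without a call was 0% at 2w pw1 in both populations, 0.0419% and 0.155% at 4w pw1 in Lrig1 and Lgr5 GL cells, and 0% at 8w pw1 and 1w pw2 in Lgr5 GL cells.

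**Figure D4:**
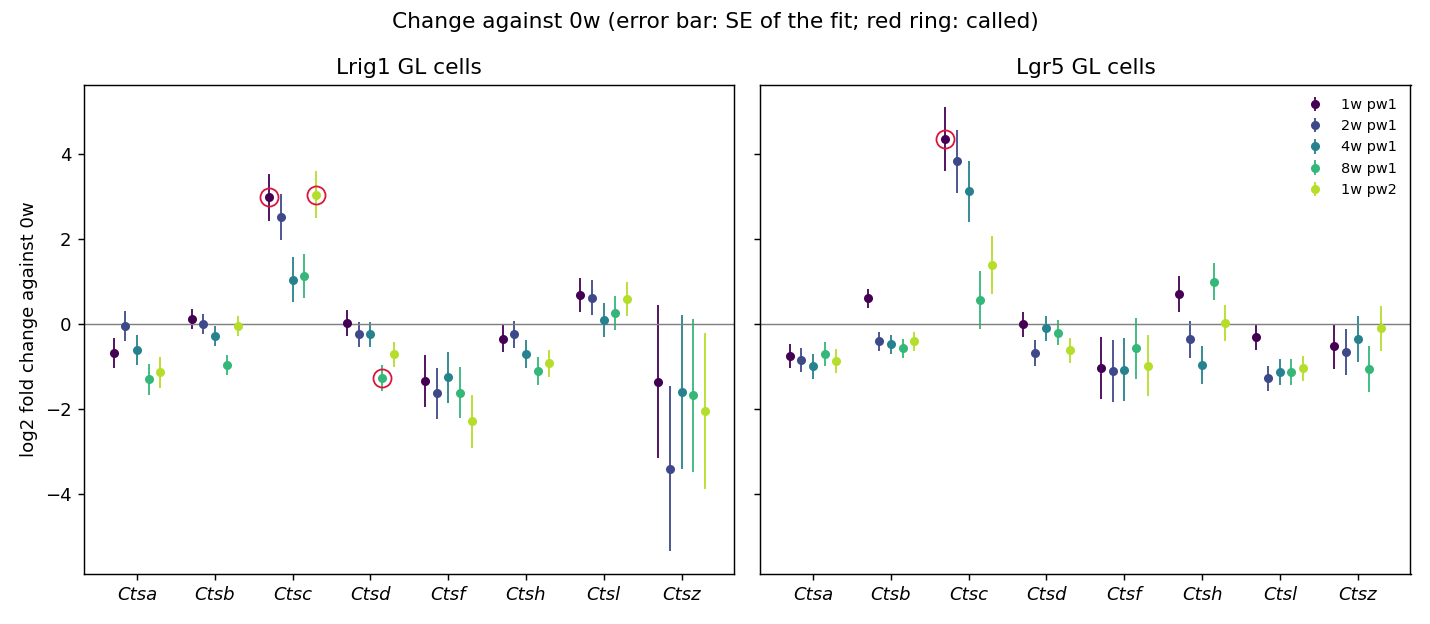
Log2 fold change against 0w of the 8 cathepsins at 5 times after wounding, in Lrig1 GL (left) and Lgr5 GL cells (right); each point is the fitted change from 3 libraries against 3, the error bar its SE, and a red ring a call. Rings mark Ctsc at 1w pw1 (2.97 and 4.34), Ctsc at 1w pw2 in Lrig1 GL cells (3.03) and Ctsd at 8w pw1 in Lrig1 GL cells (-1.28).

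Of the other 14 cathepsin genes listed, Ctso was tested in both populations and passed in no comparison; Ctse and Ctsk, which is known from osteoclasts, had at most 8 and 13 counts in any Lgr5 GL library and were not tested. Among 16 listed inhibitors of cathepsins and related proteases, 11 were tested in Lrig1 GL cells, and for Lgr5 GL cells the number was 10. BC100530, a stefin-like gene, was 9.75, 4.47 and 43.5 CPM in Lrig1 GL cells at 0w and 222, 776 and 251 CPM at 1w pw2 (log2 fold change 4.47, SE 1.04, adjusted p = 0.0452), the 1 of 11 called there, where 1.23% of genes were. Reads of such stefin-like genes may be shared with near-identical copies, so this value is uncertain. Cst3, which encodes the secreted inhibitor cystatin C, was 828, 987 and 998 CPM in Lgr5 GL cells at 0w and 204, 235 and 207 CPM at 4w pw1 (log2 fold change -2.12, SE 0.37, adjusted p = 0.0282), the 1 of 10 called there, where 0.155% of genes were. Cst3 and Spink5, an inhibitor of epidermal serine proteases, also passed the time course test there (adjusted p = 0.00747 and 0.0121). Cst6, the cystatin with the highest mean level in both populations (3002 and 916 CPM), and Cstb, a cytosolic inhibitor (445 and 279.5 CPM), passed in no comparison.

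Of 30 further lysosomal genes, all tested in both populations, Lamp2 and Cd63, both membrane proteins of lysosomes, passed in Lrig1 GL cells. Lamp2 was 539, 402 and 462 CPM at 0w, 1221, 1089 and 1723 CPM at 8w pw1 and 1213, 1690 and 1574 CPM at 1w pw2. These were log2 fold changes of 1.52 (SE 0.33, adjusted p = 0.0248) and 1.67 (SE 0.33, adjusted p = 0.0242), and Lamp2 also passed over the time course (adjusted p = 0.0187). Cd63 fell by 1.23 on the log2 scale at 8w pw1 (SE 0.27, adjusted p = 0.0304). In all 2 of 30 were called at 8w pw1 and 1 of 30 at 1w pw2, against 2.82% and 1.23% of all genes. Lamp1 and Laptm4a, the next most abundant, were not called. In Lgr5 GL cells none of the 30 was called, where 1.29%, 0%, 0.155%, 0% and 0% of all genes were at the 5 times after wounding. At an unadjusted p under 0.05 there were 2, 4, 7, 2 and 7 of the 30, against 18.6%, 8.79%, 10.7%, 5.94% and 6.42% of all genes. Of 12 genes for sorting and activating lysosomal enzymes, led in mean level by Psap (763.5 CPM in Lrig1 and 834 CPM in Lgr5 GL cells), M6pr and Scarb2, none was called in either population. An unadjusted p under 0.05 was reached by 1, 1, 0, 1 and 0 of the 12 in Lrig1 GL cells, against 11%, 10.5%, 8.37%, 22.9% and 18.5% of all genes, and by 1, 2, 3, 1 and 2 in Lgr5 GL cells.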

How the data were processed

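Libraries were made with a modified Smart-seq2 protocol from sorted tdTomato+ cells. Per the study's methods and the labels, the authors trimmed reads with Trim Galore 0.5.0 and aligned them with HISAT2 to GRCm38/mm10. They counted exons per gene name with featureCounts on a GENCODE annotation. Before testing across the time course with edgeR, they also processed the normalized counts with SVA. The number of surrogate variables is not given, so such variables were an alternative here. With them Ctsc lost its call at 1w pw1 in both populations and over the time course in Lgr5 GL cells. The deposited values are raw counts, in 1 table per population. Of the 36 columns, 15 carried a number found in the labels; the other 21 were assigned to their group and lettered a to c. Libraries come from separate mice.

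Counts were scaled by TMM and tested with edgeR 4.0.16 (quasi-likelihood F-test, R 4.3.3, filterByExpr) in each population, with 3 libraries in each of 6 groups; p-values were adjusted by Benjamini-Hochberg over all genes tested. Calls against 0w and over the time course needed an adjusted p below 0.05 and a log2 fold change over 1 in size; other comparisons needed the adjusted p. Populations were compared in 1 model of 12 groups. CPM use TMM-scaled totals and, per length, GENCODE exon lengths. Totals set the precision: 3 counts equalled 0.389 to 3.39 CPM. The fits were tested on simulated counts. Alternatives were DESeq2 1.42.0, DESeq2 size factors, limma-voom (limma 3.58.1), the likelihood ratio test, other filters, surrogate variables (sva 3.50.0), omission of the most abundant gene and each library in turn; correction for GC content and omission of mitochondrial genes were chosen after seeing the data.

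The members and lists were chosen with earlier results of these data known. Named were all listed cathepsins, called genes and the 3 most abundant genes of the supporting lists (other cathepsins, inhibitors, sorting, lysosome), and the 5 genes most like Ctsc; cell type markers are given as sums, with those called. Samples were grouped by population and time in the labels.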

Additional observations from a re-analysis of the deposited data

How the results depend on the processing

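The number of cathepsins called is given below wherever it moved, with the number of all genes called in brackets. In the reported fits the latter was 31, 0, 404, 176 and 233 in Lrig1 GL cells at 1w, 2w and 8w pw1, 1w pw2 and over the time course. In Lgr5 GL cells it was 232, 0, 28 and 0 at 1w, 2w, 4w and 8w pw1, 48 for the second against the first response and 203 over the time course. With the likelihood ratio test, Lrig1 GL cells had 1 at 2w pw1 (185), 3 at 8w pw1 (1408), 2 at 1w pw2 (825) and 4 over the time course (1999), and Lgr5 GL cells 2 each at 2w pw1 (182), at 4w pw1 (268), for 1w pw2 against 1w pw1 (765) and over the time course (1975). Between populations it gave 1 level difference at 2w pw1 (868, against 307 in the reported fit), 5 at 8w pw1 (2908, against 2019) and 4 at 1w pw2 (1786, against 1103), and 1 difference in change each at 2w pw1 (109, against 0), at 8w pw1 (693, against 179) and for 1w pw2 against 1w pw1 (234, against 9). DESeq2 gave 1 (249), 3 (1571), 3 (1019) and 5 (1881) in Lrig1 GL cells at 2w pw1, 8w pw1, 1w pw2 and over the time course, and in Lgr5 GL cells 1 at 8w pw1 (66) and 2 each at 2w pw1 (177), at 4w pw1 (279), for the second against the first response (959) and over the time course (1683). Limma-voom gave 0 in Lrig1 GL cells at 1w pw1 (0) and over the time course (117), and 1 (81), 2 (131) and 3 (353) in Lgr5 GL cells at 4w pw1, for the second against the first response and over the time course. Surrogate variables (5 in Lrig1, 4 in Lgr5 GL cells) left 0 in Lrig1 GL cells at 1w pw1 (3) and 8w pw1 (7) and 0 in Lgr5 GL cells at 1w pw1 (8) and over the time course (0). In Lrig1 GL cells at 8w pw1 the count was 0 with no filter on low counts (226), 2 with at least 10 counts in 6 libraries (575), 2 without mitochondrial genes (425) and 0 with the GC trend removed (70), which also left 0 at 1w pw2 (62). For the second against the first response in Lgr5 GL cells it was 1 with DESeq2 size factors (63), with the stricter filter (73), without the most abundant gene (58) and with the GC trend removed (52), which gave 2 over the time course (265). Level differences between populations at 1w pw1 were 0 with DESeq2 size factors (624, against 626) and with no filter (543), which left 1 at 1w pw2 (1018), and with the GC trend removed they were 0 at 1w pw1 (502), at 8w pw1 (546) and after the second wound (371). The cause of these shifts was not tested.

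Without any 1 library, the counts ranged in Lrig1 GL cells from 0 to 1 at 1w pw1 and 1w pw2 and from 0 to 2 at 8w pw1 and over the time course, and in Lgr5 GL cells from 0 to 1 at 1w pw1 and for the second against the first response and from 1 to 3 over the time course. Of all genes, 0 to 63, 7 to 604 and 2 to 257 were called in Lrig1 GL cells at 1w pw1, at 8w pw1 and after the second wound. In Lgr5 GL cells 16 to 405 were called at 1w pw1 and 6 to 143 for the second against the first response. Over the time course it was 47 to 477 in Lrig1 and 89 to 294 in Lgr5 GL cells. Level differences ranged from 0 to 2 at 0w, 0 to 1 at 1w, 2w and 4w pw1, 1 to 4 at 8w pw1 and 1 to 3 at 1w pw2. Of all genes, 227 to 495 differed in level at 0w, 224 to 761 at 1w pw1, 108 to 393 at 2w pw1 and 209 to 720 at 4w pw1. At 8w pw1 it was 899 to 2253 and at 1w pw2 299 to 1214. Differences in change ranged from 0 to 1 at 8w pw1, where 13 to 351 of all genes passed. Where a group is left with 2 libraries, these are assumed to vary like the other groups. The direction of Ctsc turned in comparisons that had no call: 1w pw2 against 1w pw1 in Lrig1 GL cells was -0.61 with the GC trend removed, -0.26 without 1w pw1 replicate 1, -0.02 without 1w pw2 replicate 2 and -0.00357 without 1w pw2 replicate 3 (range without any 1 library -0.26 to 0.34), and 8w pw1 against 0w in Lgr5 GL cells was -0.80 without 8w pw1 replicate c (range -0.80 to 0.96). Ctsc at 1w pw1 and its level at 1w pw2 between populations kept their direction throughout.

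The replicate block could be fitted only for libraries with a number in the labels. Same-numbered libraries did not deviate together on average (mean r 0.0037 over 9 pairs in Lrig1 and -0.016 over 3 pairs in Lgr5 GL cells). With so few pairs this cannot exclude a shared batch, and the labels do not say whether the numbers pair libraries. The reported fits left them unpaired. With the block, 0 cathepsins were called in Lrig1 GL cells at 1w pw1 and at 1w pw2 (Ctsc log2 fold changes 2.97 and 3.06, adjusted p = 0.0761 and 0.0662), against 1 each in the same libraries unblocked; of all genes 3 and 1 were called with the block and 19 and 97 without. Depth limits Ctsz most, with 0 counts in 4 Lrig1 GL libraries.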
